A study of Mus musculus with 3 samples.

Results

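Interferon-gamma and 7 genes of its reception and of the type 1 response were followed through the immune cells of 4T1 mammary tumors: the cytokine itself (Ifng), its receptor chains (Ifngr1 and Ifngr2), the interleukin-12 receptor chain and the transcription factors that favour its production (Il12rb2, Stat4 and Tbx21), and a pair of genes that it induces (Irf1 and Socs1). The 8 genes were named by symbol, and each symbol matched 1 of the 32285 genes in the deposited matrices. The measurement was single-cell RNA sequencing of live CD45+ cells sorted from primary tumors of 3 groups of female BALB/c mice, aged 6 to 8 weeks at implantation, each of which received 200000 tumor cells in a mammary fat pad. All tumors came from 4T1-luc, a mouse mammary carcinoma line that carries luciferase. The vehicle group bore p38a wildtype tumors and received 1X DPBS. The p38i group bore the same tumors and received the p38 inhibitor LY2228820 at 30 mg/kg by daily gavage. Both treatments began on day 4 and lasted 10 days. The p38KO group bore tumors of the p38a-KO-H9 cells, in which CRISPR-Cas9 had inactivated p38a, and was not treated. The knockout cells are 1 clone and the allele lies in the tumor cells only, which the sort for CD45+ cells is meant to remove, so the allele was not checked in these data. Tumors of 3 mice per group were pooled on day 14 into 1 library. With 1 library per group there is no replicate, no test between groups was made, and a difference between groups cannot be told apart from a difference between preparations. Each 95% interval below covers counting error only, neither the spread between mice nor that between cells. Both comparisons share the vehicle library.

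IFN-γ is the cytokine that defines the type 1 response, made mainly by activated T cells and natural killer (NK) cells. It binds a receptor of the IFNGR1 and IFNGR2 chains, which signals through the JAK1 and JAK2 kinases to target genes such as Irf1, many of which carry GAS sites. Interleukin-12 acts through IL12RB2 and STAT4, and T-bet, the product of Tbx21, drives the Ifng gene itself. SOCS1 is an induced inhibitor of the JAK kinases and so closes the loop.

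The promoters of the cytokine and of its pair of target genes are shown because the results turn on these 3 genes. Each is the 250 bases before the RefSeq start site on build GRCm38.p6, 5′ to 3′ on the strand of the gene, with capitals for matches to the GAS letters TTCNNNGAA or to the core of the interferon-stimulated response element, GAAANNGAA, both searched on both strands.
Ifng, chr10:118440796-118441045, plus strand: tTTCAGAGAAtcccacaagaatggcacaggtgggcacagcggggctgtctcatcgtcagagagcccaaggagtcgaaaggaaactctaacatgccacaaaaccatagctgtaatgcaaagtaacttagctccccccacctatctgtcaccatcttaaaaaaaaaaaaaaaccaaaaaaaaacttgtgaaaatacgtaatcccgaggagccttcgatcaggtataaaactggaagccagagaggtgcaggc
Irf1, chr11:53769764-53770013, plus strand: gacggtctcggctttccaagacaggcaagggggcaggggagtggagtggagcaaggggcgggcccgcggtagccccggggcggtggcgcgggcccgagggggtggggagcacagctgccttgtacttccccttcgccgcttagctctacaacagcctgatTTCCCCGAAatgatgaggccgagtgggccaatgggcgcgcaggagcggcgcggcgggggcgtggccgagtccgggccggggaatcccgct
Socs1, chr16:10785537-10785786, minus strand: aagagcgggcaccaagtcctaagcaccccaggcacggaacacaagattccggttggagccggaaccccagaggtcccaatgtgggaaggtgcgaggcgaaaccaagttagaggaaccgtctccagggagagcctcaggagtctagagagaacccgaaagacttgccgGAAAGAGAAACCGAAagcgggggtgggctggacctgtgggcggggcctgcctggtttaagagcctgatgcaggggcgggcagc
The GAS match of Irf1 began 90 bases before the start site and that of Ifng 249 bases before it. The pair of response-element matches of Socs1 overlapped, beginning 83 and 77 bases before its start. Of 32851 promoter windows of the same length, 7.02% held the GAS letters and 7.13% the response-element core, so a match is common and describes letters only. Of the other 5 genes, Il12rb2 held a GAS match 123 bases before its start and the second promoter of Stat4 a response-element match 97 bases before its start. All 8 genes are protein-coding and lie on chromosomes 1, 6, 10, 11 and 16.

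The cell filter asked for 1500 UMIs (unique molecular identifiers, each marking 1 captured transcript), 300 genes and a mitochondrial share of no more than 20%, and it left 3820 cells in the vehicle, 4793 in the p38i and 3859 in the p38KO library, with median depths of 3162, 3038 and 3317 UMIs. They were gated by raw counts of Cd3e with Cd8a (CD8 T) or Cd4 (CD4 T), Ncr1 (NK), Flt3 (dendritic cells, DC), C1qa (macrophages), Ly6c2 or Fn1 (monocytes) and Csf3r or Cxcr2 (neutrophils). Cells that mixed certain of these lineages were left out, by rules given with the processing below. The smallest gate was that of DC in the vehicle library, with 41 cells, and the largest that of neutrophils in the p38i library, with 2401 cells. Counts of each gene were summed over the cells of a gate and scaled to 1000000 UMIs of those cells (CPM). All 6 T cell markers not used for gating peaked in a T gate in each library, as did all 6 neutrophil and all 6 monocyte markers in their gates, and 5 or 6 of the 6 markers of macrophages, NK cells and DC. The exceptions among NK cells and DC were Nkg7, highest in the CD8 T gate in the vehicle and p38i libraries, Ccr7, highest in the CD4 T gate in the vehicle library, and Cd74, highest in macrophages in the p38i and p38KO libraries. The median mitochondrial share was 0.671%, 0.968% and 2.10% in the vehicle, p38i and p38KO libraries, and pairs of libraries shared 5 to 9 barcodes.

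A gene was called between libraries when its CPM differed by at least 0.5 on the log2 scale either way, the interval of that log2 ratio left out 0 and both libraries together held at least 20 counts. In the CD8 T gate none of 7 members passed in p38i, where 7.32% of all genes did, and 4 of 7 passed in p38KO, where 12.0% did. In the CD4 T gate 2 of 8 passed in p38i against 8.42% of all genes, and 3 of 8 in p38KO against 10.5%. In the NK gate 3 of 7 passed in p38i against 8.96%, and 4 of 7 in p38KO against 12.2%. In DC 2 of 5 passed in each comparison, against 8.80% of all genes in p38i and 9.75% in p38KO. None of the 4 members with enough counts passed in macrophages, where 7.21% of all genes did in p38i and 12.6% in p38KO. In monocytes 1 member passed in each comparison, of 6 in p38i and of 4 in p38KO, against 7.03% and 11.3%. In neutrophils none of 5 passed in p38i and 1 of 5 in p38KO, against 13.4% of all genes in both. Shares of 4 to 8 genes are coarse, and whether the members passed more often than other genes was not tested.

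Ifng, the cytokine gene, was held mainly by T and NK cells. Over all kept cells the intervals of the 3 libraries overlapped, at 20.8 CPM in vehicle (95% interval 18.9 to 22.8, 432 counts), 19.1 in p38i (17.4 to 20.9, 462 counts) and 20.96 in p38KO (19.2 to 22.9, 511 counts). The cells that held these counts differed between the libraries. CD8 T cells held 80.3% of them in vehicle (76.3 to 84.0), 71.0% in p38i (66.6 to 75.1) and 11.2% in p38KO (8.56 to 14.2). CD4 T cells held 1.39% in vehicle (0.511 to 3.00), 14.1% in p38i (11.0 to 17.6) and 42.3% in p38KO (37.9 to 46.7). NK cells held 6.02% in vehicle, 4.33% in p38i and 18.0% in p38KO. The CD8 T gate was therefore the main holder in vehicle and p38i, and the CD4 T gate in p38KO. DC, macrophages, monocytes and neutrophils together, 2678 to 3488 cells per library, held 4 or 5 counts in each.

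**Figure D1:**
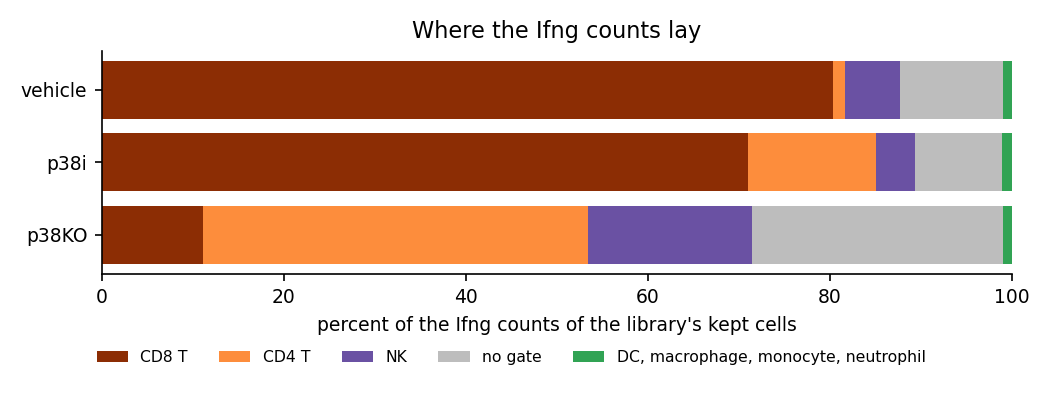
Percent of the Ifng counts of each library's kept cells that lay in the CD8 T gate, the CD4 T gate, the NK gate, the 4 other gates together and cells of no gate, 1 stacked bar per library. CD8 T cells filled 80.3% of the vehicle bar and 11.2% of the p38KO bar, and CD4 T cells 1.39% and 42.3%.

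In CD8 T cells, the cytotoxic T cells, Ifng stood at 190.0 CPM in vehicle (347 counts in 248 cells), 239 in p38i (328 counts in 222 cells) and 67.0 in p38KO (57 counts in 138 cells). The p38KO level was 0.353 of vehicle, a log2 ratio of -1.50 (-1.93 to -1.10), and was called lower. The p38i level was 1.26 times vehicle, a log2 ratio of 0.33 (0.11 to 0.56), under the limit of 0.5. A single vehicle cell carried 133 of the 347 counts. Without the cell with the most Ifng counts in each library, the p38KO log2 ratio was -0.94 (-1.40 to -0.49), still called lower, and the p38i log2 ratio was 0.77 (0.50 to 1.03), which passed as higher.

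In CD4 T cells, the helper and regulatory T cells, Ifng stood at 8.50 CPM in vehicle (6 counts in 143 cells), 81.1 in p38i (65 counts in 173 cells) and 194 in p38KO (216 counts in 192 cells). Both were called higher than vehicle, p38i by a log2 ratio of 3.26 (2.06 to 4.75) and p38KO by one of 4.51 (3.37 to 5.98). One p38i cell carried 37 of the 65 counts, and without the top cell of each library the p38i log2 ratio was 2.30 (0.91 to 4.03) and the p38KO log2 ratio 4.36 (3.10 to 6.00). The 6 markers of neutrophils in this gate summed to 1330, 653 and 473 CPM in vehicle, p38i and p38KO, against 136048 to 200037 CPM in the neutrophil gate. In vehicle 1 cell gave 672 of the 939 marker counts, and in p38KO Retnlg alone was at 0. The part of these markers in the Ifng values was not tested. Neutrophils themselves held 2, 3 and 2 Ifng counts.

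In NK cells, innate lymphocytes that release the cytokine without antigen receptors, Ifng stood at 39.5 CPM in vehicle (26 counts in 109 cells), 27.5 in p38i (20 counts in 114 cells) and 99.1 in p38KO (92 counts in 124 cells). The p38KO log2 ratio was 1.33 (0.69 to 2.02) and was called higher. The p38i log2 ratio was -0.52 (-1.44 to 0.38), an interval that held 0. The p38KO NK gate also held mast cell and basophil transcripts: the markers Cpa3, Ms4a2 and Mcpt8, called mast cell markers here, summed to 1.52, 1.38 and 425 CPM, mostly Cpa3, in 1, 1 and 13 cells. Without cells bearing a mast cell or tumor cell marker the Ifng log2 ratio of p38KO in NK cells was 1.37 (0.70 to 2.10). The 6 T cell markers summed to 737 to 1046 CPM in the NK gate and 5727 to 5964 CPM in the CD8 T gate. Trbc2 and Lck gave most of the NK-gate sum, while Trac, Cd3d and Cd3g stood at 6.46 to 63.7 CPM there. In the CD8 T gate Trac, Cd3d and Cd3g stood at 740 to 1959 CPM. The NK gate was thus low in T cell transcripts but not free of them, and Cd8b1 was at 0 there. The γδ T cell receptor genes Trdc and Tcrg-C1 summed to 165, 145 and 118 CPM in the NK gate, against 19.2, 37.9 and 67.0 CPM in the CD8 T gate. The 50, 50 and 47 NK-gate cells with either gene held 9 of 26, 12 of 20 and 11 of 92 Ifng counts. Whether these cells are NK cells was not tested. The 6 DC markers summed to 352, 673 and 1232 CPM in the NK gate, mostly Cd74, against 16628 to 20809 CPM in DC, with Xcr1 at 0 in vehicle and p38i and at 21 counts in p38KO; their part in the Ifng values was not tested.

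**Figure D2:**
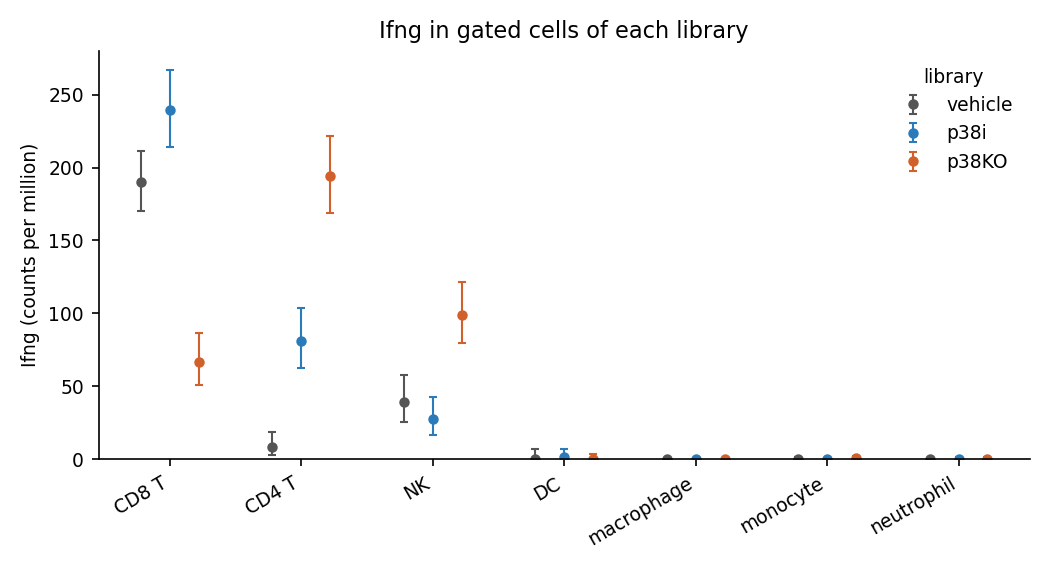
Ifng level in CPM (vertical axis) in 7 gates for the vehicle, p38i and p38KO libraries; points are the 1 library of each group and bars the exact Poisson 95% interval. The CD8 T points of vehicle and p38i lie at 190.0 and 239, the highest CD4 T point is that of p38KO at 194, and the DC and myeloid points lie at 0 to 1.29.

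The 2 T gates thus moved in opposite directions in p38KO, at -1.50 and 4.51 on the log2 scale, a contrast that was not tested. The order of the gates by Ifng level changed with it. In vehicle the CD8 T level exceeded that of NK cells, which exceeded that of CD4 T cells, with no overlap of the intervals. In p38i the order was CD8 T, CD4 T and NK. In p38KO it was CD4 T, NK and CD8 T, and the intervals of NK and CD8 T overlapped. Among DC, macrophages, monocytes and neutrophils no neighbours differed beyond their intervals in any library. DC held 0, 1 and 0 counts and macrophages 0, 0 and 1. The 0 in vehicle macrophages allows a level of up to 0.865 CPM, which is 3 counts in that gate, and the 0 in vehicle DC one of up to 5.54 CPM, while the plotted intervals end at 1.06 and 6.82 CPM.

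A few cells held a large part of the transcript. In vehicle CD8 T cells 5 cells held 53.0% of the Ifng counts, in p38i 5 cells held 45.7%, and in p38KO 5 cells held 33.3%. Cells with at least 10 Ifng counts numbered 6, 7 and 0 in the CD8 T gate of vehicle, p38i and p38KO, 0, 1 and 6 in the CD4 T gate and 0, 0 and 3 in the NK gate. The 6 such CD4 T cells of p38KO held 181 of its 216 counts. Cells of that class thus lay in the CD8 T gate in vehicle, mostly there in p38i, and in the CD4 T and NK gates in p38KO, where cells of no gate also held up to 50 counts. In vehicle CD4 T cells each of the 6 positive cells held 1 count.

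**Figure D3:**
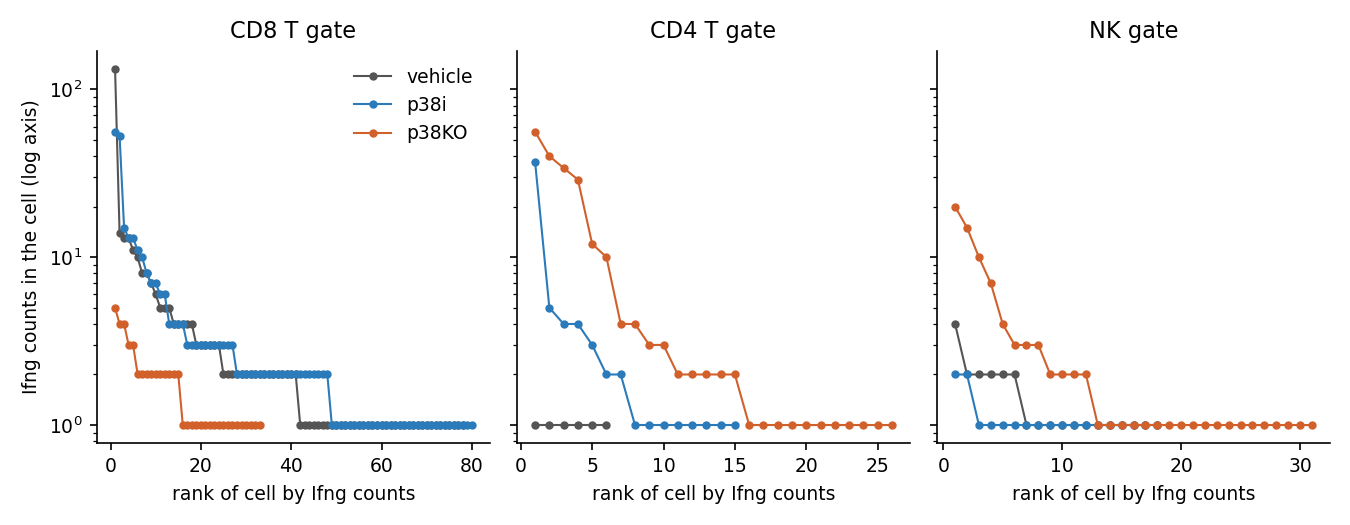
Ifng counts in each cell with at least 1 count (vertical log axis) against the rank of the cell within its library (horizontal axis), for the CD8 T, CD4 T and NK gates. The top cell of vehicle CD8 T holds 133 counts, no p38KO CD8 T cell holds more than 5, and the top p38KO CD4 T cell holds 56.

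The share of cells with an Ifng UMI moved less than the level. After each cell was thinned to 1500 UMIs, the share in the CD8 T gate was 13.7% in vehicle (9.68 to 18.6), 15.8% in p38i (11.2 to 21.2) and 10.9% in p38KO (6.21 to 17.3). These intervals overlap, which does not show that the shares were equal, and the shares were not compared directly. The share in the CD4 T gate was 2.10% (0.435 to 6.01), 4.05% (1.64 to 8.16) and 8.85% (5.24 to 13.8). The vehicle and p38KO intervals overlapped only between 5.24% and 6.01%. The share in the NK gate was 4.59%, 6.14% and 8.06%, with overlapping intervals too. Unthinned, the shares were 31.5%, 36.0% and 23.9% of CD8 T cells, 4.20%, 8.67% and 13.5% of CD4 T cells and 16.5%, 15.8% and 25.0% of NK cells. Neutrophils, which should lack the transcript and had median depths of 2149 to 2480 UMIs against 3567 to 6132 in the T and NK gates, showed it in 0.101%, 0.125% and 0.119% of cells, and each of the T and NK shares lay above that background. In the CD8 T gate Ifng-positive cells were deeper than the rest, with medians of 6928 against 5730 UMIs in vehicle.

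Cells of no gate held 11.3% of the Ifng counts in vehicle, 9.52% in p38i and 27.6% in p38KO. In p38KO 117 of these 141 counts lay in 102 cells that carried Cd3e together with Csf3r, Cxcr2 or C1qa, which the gates leave out as mixtures, and 79 of the 117 lay in 31 of them with Cd4 but no Cd8a. The like cells of vehicle and p38i held 27 and 23 counts. When gates were drawn by their positive genes alone, so that a cell could fall in several gates, the CD4 T share in p38KO was 58.3% and the CD8 T share 17.0%. Cd3e cells with neither Cd8a nor Cd4, in 131, 228 and 171 cells, held 14, 20 and 17 counts, of which 1, 3 and 3 lay in cells with Trdc, the constant chain of the γδ T cell receptor. These cells thus held 3.24%, 4.33% and 3.33% of the Ifng counts. A transcript of Cd8a or Cd4 may have been missed in them, and whether they lack both was not tested. Within the CD4 T gate, cells with Foxp3, the factor of regulatory T cells, made up 28.0%, 22.0% and 19.8% of cells and held 1 of 6, 3 of 65 and 4 of 216 Ifng counts.

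Ifngr1, the chain that binds the ligand, was read in every gate and was highest in lymphocytes. In NK cells it stood at 958 CPM in vehicle (631 counts), 628 in p38i (456 counts) and 543 in p38KO (504 counts), so the vehicle library was the highest. Both were called lower, p38i with a log2 ratio of -0.61 (-0.79 to -0.43) and p38KO with one of -0.82 (-0.99 to -0.65), though the p38i value was -0.41 after thinning, under the limit. In CD4 T cells it stood at 796, 688 and 638 CPM in vehicle, p38i and p38KO, with log2 ratios of -0.21 and -0.32 that stayed under the limit of 0.5. In CD8 T cells the 3 libraries lay close together, at 443, 417 and 449 CPM, and both intervals of the ratio held 0. Monocytes held 233 to 247 CPM, neutrophils 211 to 218, DC 129 to 152 and macrophages 106 to 131, and none of these was called. Macrophages were lowest in each library, though in p38i and p38KO their interval overlapped that of DC. NK cells were highest in vehicle, and in p38i and p38KO the CD4 T level came first.

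Ifngr2, the signalling chain, showed the reverse distribution. It stood at 92.8, 93.5 and 127 CPM in macrophages of vehicle, p38i and p38KO, at 98.2, 101 and 114 in monocytes, at 73.4, 74.1 and 99.1 in neutrophils and at 42.5, 65.8 and 70.3 in DC. T and NK cells were far lower: 5, 1 and 4 counts in CD8 T cells, 1, 4 and 5 in NK cells and 8, 13 and 13 in CD4 T cells. In CD8 T cells this was 3.73%, 0.984% and 4.75% of the neutrophil level, while S100a9, an abundant neutrophil transcript, stood there at 0.175%, 0.214% and 0.119% of its neutrophil level. Ifngr2 rose in DC of p38KO, at a log2 ratio of 0.73 (0.02 to 1.48) from 23 and 67 counts, with 0.63 (-0.11 to 1.41) in p38i, but the p38KO call was lost under 5 of 9 other settings, each of which kept the sign. In p38KO macrophages and neutrophils the log2 ratios were 0.46 (0.28 to 0.64) and 0.43 (0.24 to 0.63), positive but under the limit. Over all kept cells Ifngr2 was at 66.4, 72.4 and 92.8 CPM, and macrophages held 23.3%, 17.9% and 52.3% of its counts. They made up 4.61%, 4.05% and 15.0% of the cells but, being deep, 16.7%, 13.9% and 38.2% of the UMIs.

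**Figure D4:**
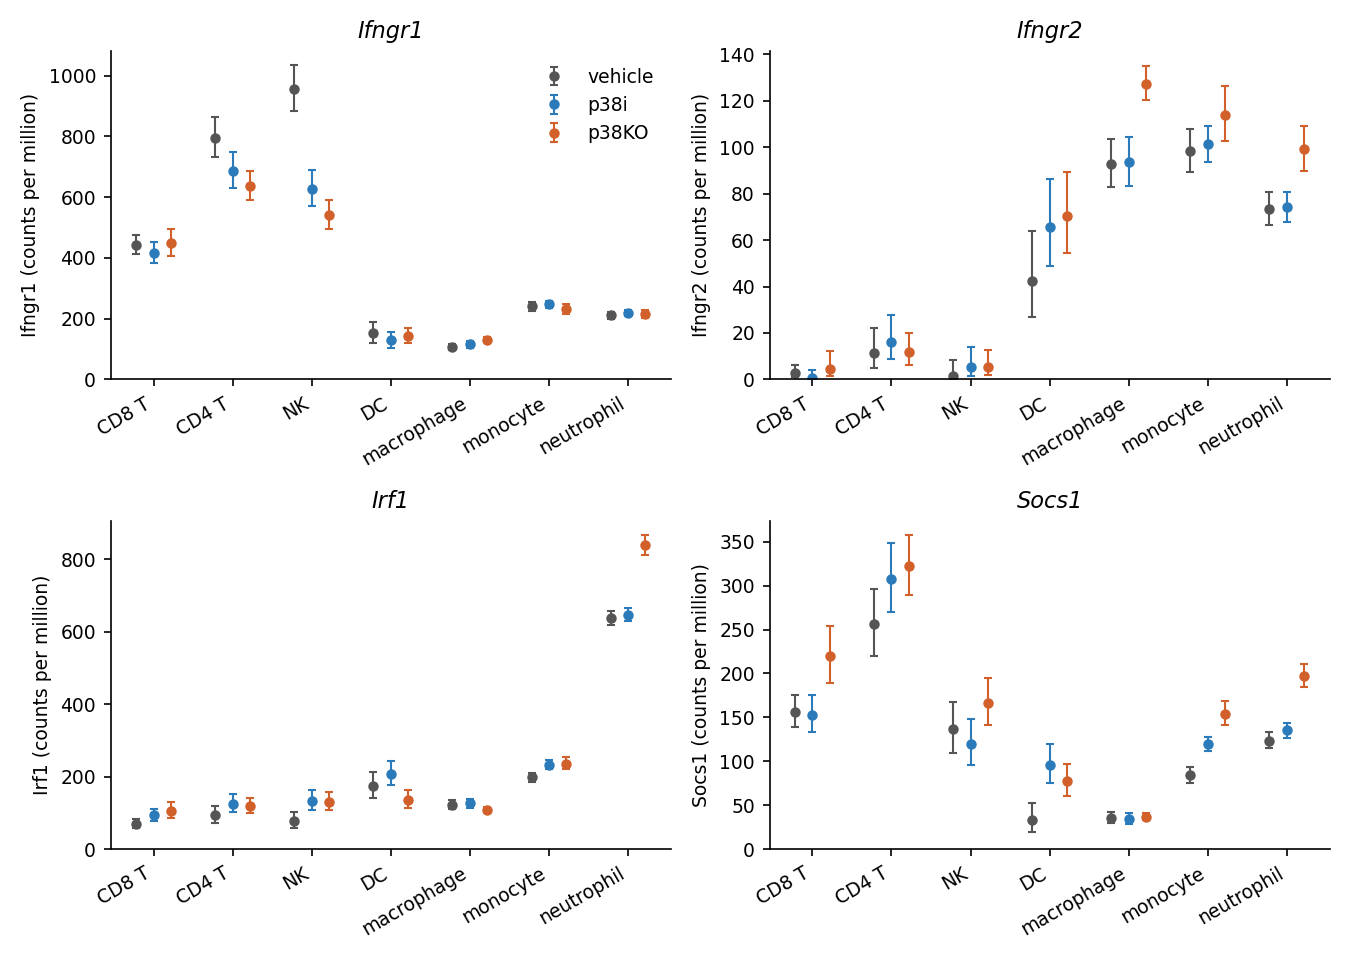
Levels of Ifngr1, Ifngr2, Irf1 and Socs1 in CPM (vertical axes, each from 0) in 7 gates of the vehicle, p38i and p38KO libraries; points are the 1 library of each group and bars exact Poisson 95% intervals. Ifngr1 is highest in the T and NK gates and Ifngr2 in the myeloid gates, Irf1 is highest in neutrophils at 638 to 839, and Socs1 in CD4 T cells at 256 to 322.

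Il12rb2, the interleukin-12 receptor chain that marks cells able to answer the cytokine, was read in T and NK cells and fell most in NK cells. There it stood at 100.2 CPM in vehicle (66 counts), 41.3 in p38i (30 counts) and 30.2 in p38KO (28 counts). Both were called lower, p38i with a log2 ratio of -1.28 (-1.95 to -0.63) and p38KO with one of -1.73 (-2.42 to -1.07), and stayed so under all 9 other settings. In CD8 T cells it stood at 44.9, 42.3 and 17.6 CPM (82, 58 and 15 counts), and only the p38KO log2 ratio, -1.35 (-2.25 to -0.54), was called. Thinned cells held 12 counts in vehicle and 6 in p38KO, too few for a call, with a log2 ratio of -0.15 (-1.85 to 1.37). In CD4 T cells it stood at 24.1, 31.2 and 22.5 CPM with both intervals of the ratio holding 0. The Ifng level of p38KO NK cells was thus higher than in vehicle while their Il12rb2 level was lower. The other gates held 2 to 17 counts, at most 7.74 CPM.

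Tbx21, the gene of T-bet, was likewise read in T and NK cells, highest in NK cells of each library, though in p38i the interval overlapped that of CD8 T cells. NK cells held 94.1, 68.9 and 80.8 CPM in vehicle, p38i and p38KO (62, 50 and 75 counts), with no call. CD8 T cells held 46.5, 48.9 and 27.1 CPM (85, 67 and 23 counts), and the p38KO log2 ratio of -0.78 (-1.52 to -0.10) was called lower. CD4 T cells held 42.5, 28.7 and 20.7 CPM (30, 23 and 23 counts), and only the p38KO log2 ratio of -1.04 (-1.89 to -0.21) was called lower, since the p38i interval, -1.42 to 0.27 around -0.56, held 0. In the CD4 T gate of p38KO as a whole, then, Tbx21 was lower than in vehicle where Ifng was higher. Within that gate the Tbx21 CPM was higher in Ifng-positive cells than in the rest, on 6 and 17 counts, which was not tested. Thinned CD4 T cells held 11 and 7 counts, too few for a call, and with at most 5% mitochondrial counts the CD8 T value was -0.65 (-1.38 to 0.03), which was not called. The other gates held 0 to 7 counts.

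Stat4, the factor activated by interleukin-12, stood at 181, 149 and 145 CPM in NK cells of vehicle, p38i and p38KO, with no call. In CD4 T cells it stood at 160.0, 106 and 105 CPM (113, 85 and 117 counts), lower in both, at -0.59 (-1.02 to -0.17) and -0.61 (-0.99 to -0.22), and at -0.31 and -0.35 after thinning, with both intervals holding 0. In CD8 T cells it stood at 119, 86.1 and 87.0 CPM, and the log2 ratios of -0.47 and -0.46 stayed under the limit. In DC it rose in p38i, from 5 to 32 counts (9.24 to 41.3 CPM), a log2 ratio of 2.16 (0.79 to 3.88), of which 1 p38i cell gave 13. The p38KO DC held 23 counts (24.1 CPM) with a log2 ratio of 1.38 (-0.04 to 3.14), an interval that held 0.

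Within the T and NK gates, cells with an Ifng UMI could be set beside the rest, a split made on Ifng itself and therefore only a description. In CD8 T cells Il12rb2 was at 60.2, 49.1 and 21.2 CPM in Ifng-positive and at 35.4, 37.2 and 16.3 CPM in Ifng-negative cells of vehicle, p38i and p38KO. Tbx21 was at 53.1, 59.3 and 25.4 CPM in Ifng-positive and at 42.5, 41.0 and 27.7 CPM in Ifng-negative CD8 T cells. In p38KO both genes lay near the level of the rest of that gate, on only 5 and 6 counts in the Ifng-positive cells. Ifngr1 was lower in Ifng-positive NK cells in each library, at 686, 442 and 441 CPM against 1028, 678 and 591. In CD8 T cells it was also lower, at 359, 313 and 423 CPM against 495, 495 and 459. The p38KO difference there was small, with 100 counts in the 33 Ifng-positive cells. In CD4 T cells Ifngr1 was higher in the Ifng-positive cells of vehicle, at 861 against 793 CPM, on 22 counts in 6 cells. It was lower in those of p38i and p38KO. Ifng-positive CD4 T cells of vehicle, p38i and p38KO held 39.1, 143.8 and 51.7 CPM of Il12rb2, against 23.5, 18.1 and 16.3 in the rest. Their Stat4 was at 234.7, 215.7 and 160.3 CPM, against 157.2, 93.4 and 93.6 in the rest. Their Tbx21 was at 195.6, 47.9 and 31.02 CPM, against 36.7, 26.5 and 18.5. Those Il12rb2 values rest on 1, 12 and 10 counts and the Tbx21 values on 5, 4 and 6. None of these differences was tested.

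Irf1, the first transcription factor gene in the IFN-γ response, was highest by CPM in neutrophils. They held 638 CPM in vehicle (3784 counts), 648 in p38i (4573 counts) and 839 in p38KO (3625 counts). They held 62.1%, 57.7% and 53.4% of all Irf1 counts. They made up 52.0%, 50.1% and 43.4% of the kept cells and 28.5%, 29.1% and 17.7% of the UMIs. The p38KO log2 ratio was 0.39 (0.33 to 0.46), under the limit of 0.5, and the p38i ratio 0.02 (-0.04 to 0.08). The median over all genes tested in neutrophils was itself 0.14 in p38i and 0.13 in p38KO, so relative to it the p38KO rise was smaller. Monocytes came next, at 198, 234 and 237 CPM. DC followed at 174, 209 and 137 CPM and macrophages at 123, 127 and 109 CPM. None of these was called.

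In T and NK cells Irf1 was lower than in neutrophils, and it rose in NK cells of both groups and in CD8 T cells of p38KO. NK cells held 77.4 CPM in vehicle (51 counts), 134 in p38i (97 counts) and 131 in p38KO (122 counts), called higher in both at 0.79 (0.28 to 1.31) and 0.76 (0.28 to 1.26). After thinning, on 14, 25 and 18 counts, neither was called, at 0.77 (-0.23 to 1.83) and 0.18 (-0.91 to 1.30). CD8 T cells held 70.6, 93.4 and 106 CPM (129, 128 and 90 counts), and the p38KO log2 ratio of 0.58 (0.18 to 0.98) was called higher, a call kept in 6 of 9 other settings. The p38i log2 ratio of 0.40 (0.04 to 0.77) stayed under the limit. CD4 T cells held 93.5, 126 and 119 CPM, and both intervals of the ratio held 0. The T and NK levels of 11.1% to 20.6% of the neutrophil level exceeded those of S100a9, at 0.119% to 0.789%.

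Socs1, the inhibitor of the pathway, was highest in CD4 T cells, at 256, 307 and 322 CPM in vehicle, p38i and p38KO (181, 246 and 358 counts), with log2 ratios of 0.26 and 0.33 under the limit. CD8 T cells held 157, 153 and 220 CPM and NK cells 137, 120 and 167, with no call, the p38KO log2 ratio of 0.49 (0.22 to 0.76) in CD8 T cells falling just short of the limit. Among monocytes it stood at 84.3, 120 and 154 CPM (364, 790 and 500 counts), higher in both, at 0.50 (0.32 to 0.69) and 0.87 (0.67 to 1.07). The p38i value lies at the limit and was lost in 4 of 9 other settings. With gates drawn by their positive genes alone neither was called, at 0.22 and 0.05 (-0.07 to 0.17). The p38KO monocyte gate held more tumor cell transcripts, as the sum of Krt8, Krt18 and Epcam was 5.33, 4.09 and 139 CPM, in 20, 24 and 19 cells; without cells bearing these or mast cell markers the p38KO log2 ratio was 0.95 (0.75 to 1.16).

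Neutrophils held 124, 135 and 197 CPM of Socs1 (733, 955 and 853 counts), with 0.13 in p38i and 0.68 (0.53 to 0.82) in p38KO, called higher, and 0.29 with gates drawn by their positive genes alone, which was not called. DC held 33.3, 95.4 and 77.6 CPM (18, 74 and 74 counts), higher in both, at 1.52 (0.76 to 2.35) and 1.22 (0.46 to 2.05), but with 2 UMIs of Flt3 required neither call held. Macrophages held 36.0, 34.2 and 36.8 CPM, and both intervals of the ratio held 0. The Socs1 calls thus lay in monocytes, DC and, in p38KO, neutrophils, with none in macrophages. Each of these calls was lost in some of the other settings. The p38KO intervals in CD8 T cells (0.22 to 0.76) and CD4 T cells (0.07 to 0.59) also lay above 0, under the limit of 0.5.

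Irf1 and Socs1 were both higher in neutrophils that carried interferon-stimulated transcripts, a split chosen after the values were seen. In neutrophils with at least 2 UMIs of Ifit1, Ifit3, Isg15 or Rsad2 after thinning, Irf1 was at 818, 898 and 1025 CPM in vehicle, p38i and p38KO, against 380, 452 and 433 CPM in those with 0. Socs1 was at 191, 202 and 266 CPM against 48.3, 82.9 and 65.8. The first class made up 52.0%, 35.9% and 62.8% of the neutrophils. Within each class both genes were higher in p38i and p38KO than in vehicle, and the first class was larger in p38KO and smaller in p38i. The same split gave higher Irf1 and Socs1 values in monocytes and macrophages of each library, some by little. In vehicle and p38i macrophages the first class was only 17 and 12 cells, with 33 and 23 Irf1 and 12 and 11 Socs1 counts. Irf1 was there at 130 against 115 and 130 against 119 CPM, and in p38KO monocytes at 232 against 204. Whether these differences exceed counting error was not tested. In monocytes Socs1 was at 148, 256 and 220 CPM against 52.1, 83.6 and 103 CPM. Type I interferon induces those 4 genes, which are read below as type I interferon genes, and which interferon acted was not tested.

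**Figure D5:**
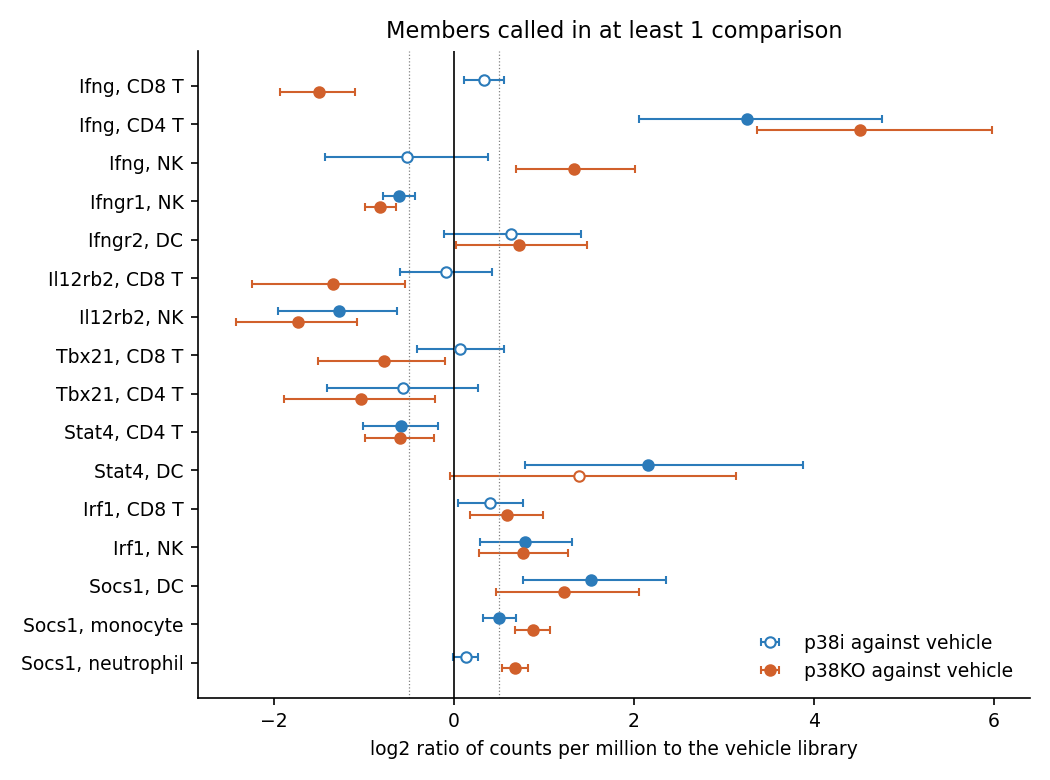
Log2 ratio of CPM to the vehicle library (horizontal axis) for each member and gate called in at least 1 comparison, p38i in blue and p38KO in orange; filled points were called, open points were not, bars are exact conditional binomial 95% intervals and dotted lines mark 0.5 either way. Ifng in CD4 T cells lies farthest to the right, at 3.26 and 4.51, and Il12rb2 in NK cells lies to the left in both, at -1.28 and -1.73.

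Other genes of the pathway were read from lists. The share of all genes called in the same gate and comparison, 7.03% to 13.4%, is the background of each count below. Whether a list passed more often than other genes was not tested. Of 13 further IFN-γ targets, 12 had enough counts in macrophages, where 3 were lower and none higher in each comparison, with median log2 ratios of -0.08 in p38i and -0.13 in p38KO against -0.01 and 0.06 over all genes. Of all genes in macrophages, 7.21% were called in p38i and 12.6% in p38KO. Cxcl9, an IFN-γ-induced chemokine that draws CXCR3+ T cells, fell there from 1515 CPM in vehicle to 600.3 in p38i and 476 in p38KO, log2 ratios of -1.34 (-1.41 to -1.26) and -1.67 (-1.73 to -1.61). Cxcl10, a chemokine of the same receptor, fell from 399.9 CPM to 159.8 and 205, at -1.32 and -0.97. In monocytes 1 of 12 targets was lower in p38i and 1 higher in p38KO, near the 7.03% and 11.3% of all genes called. In neutrophils 1 was higher and 1 lower in p38i, while 3 were higher and 1 lower in p38KO, with medians of -0.12 and 0.33 against 0.14 and 0.13 over all genes. Of all genes in neutrophils, 13.4% were called in each comparison. In DC 3 of 11 were higher and 1 lower in p38i, and 1 was higher in p38KO, against 8.80% and 9.75% of all genes. The CPM of Cxcl9 and Cxcl10 in macrophages was thus lower in both comparisons.

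In the T and NK gates, 8 to 10 of the targets had enough counts, and 0 or 1 were higher and 1 to 3 lower in each comparison. Of all genes, 7.32% to 8.96% were called in these gates in p38i and 10.5% to 12.2% in p38KO. Cd274, which encodes the checkpoint ligand PD-L1, was lower in both in CD4 T cells (118, 54.9 and 68.3 CPM in vehicle, p38i and p38KO) and in NK cells (77.4, 42.7 and 29.1 CPM). Irf8 was lower in both in NK cells, at 1331, 854 and 897 CPM. Cxcl10 was lower in both in CD8 T cells, from 62 counts to 5 and 8.

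Of 12 type 1 factors and products, 11 had enough counts in CD8 T cells, where 2 were higher and 3 lower in p38i and 1 higher and 4 lower in p38KO. Of all genes in this gate, 7.32% and 12.0% were called. Gzmb, the gene of the cytotoxic protease granzyme B, was lower in both, at 1051 CPM in vehicle, 514 in p38i and 534 in p38KO, log2 ratios of -1.03 and -0.98. In CD4 T cells 0 were higher and 2 lower of 8 in p38i, and 3 higher and 4 lower of 9 in p38KO, against 8.42% and 10.5% of all genes. There Gzmb was lower in both, at 681, 457 and 173 CPM, and so was Tnf, a type 1 cytokine, at 118, 48.7 and 53.0 CPM. In NK cells 2 of 9 were lower in p38i and 5 of 10 in p38KO, with none higher, against 8.96% and 12.2% of all genes. Ccl4, a chemokine of activated lymphocytes, was lower in both in NK cells, at 294, 161 and 166 CPM. In p38KO CD4 T cells the 3 higher genes were the chemokine genes Ccl3, at 7 counts in vehicle and 51 in p38KO, and Ccl4, at 11 and 64, and the cytokine gene Lta, at 41 and 114. Of the p38KO counts 46 of Ccl3, 55 of Ccl4 and 41 of Lta lay in the 26 Ifng-positive cells. The list thus moved both ways in p38KO CD4 T cells, with a median of 0.15 on the log2 scale, and in p38KO NK cells its median was -0.58.

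In the other gates the same list held 2 to 6 called genes per comparison, against 7.03% to 13.4% of all genes. Ccl5 rose in both in DC, from 51.7 CPM to 395 and 196, and in neutrophils, from 13.2 CPM to 41.1 and 47.2, and fell in both in macrophages, from 184 CPM to 99.7 and 126. Ccl3 and Ccl4 fell in DC in both, Ccl4 from 427 CPM to 36.1 and 29.4 and Ccl3 from 42 counts to 4 and 22. Tnf rose in macrophages in both, from 5.77 CPM to 14.9 and 14.9.

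Of the 8 receptor and kinase genes of the axis, 1 was lower in p38i and 3 in p38KO in NK cells, with medians of -0.18 and -0.47 against -0.05 and -0.01 over all genes and Stat3 lower in both at 290 CPM in vehicle, 193 in p38i and 173 in p38KO. In p38KO neutrophils 3 of 7 were higher, with a median of 0.47 against 0.13, and elsewhere 0 to 2 were called. Of all genes, 8.96% and 12.2% were called in NK cells of p38i and p38KO and 13.4% in neutrophils of p38KO. Jak2, the kinase bound to the IFNGR2 chain, was higher in p38KO in neutrophils, at 0.90 (0.70 to 1.10), in monocytes, at 0.68 (0.49 to 0.87), and in DC, at 0.53 (0.13 to 0.94), and in p38i in none of these. In neutrophils Il18r1, a receptor chain of the Ifng-inducing cytokine interleukin-18, was higher in both, from 27 counts to 72 and 59. Of the 6 inducing cytokine genes, at most 5 had enough counts in a gate and at most 1 was called. Of the 6 negative regulators 0 to 3 were called per gate and comparison, against 7.03% to 13.4% of all genes. Socs3 was lower in both in NK cells, from 30 counts to 15 and 19, and Cish was higher in both in neutrophils, at 24.0, 39.7 and 48.1 CPM. Of the 6 type I interferon genes read, all 6 were lower in p38i neutrophils, with a median of -1.66, and 4 were higher in p38KO neutrophils, with a median of 0.71. Against a share of 13.4% of all genes called in each, this list moved in opposite directions in the 2 comparisons. In the other 6 gates 0 to 5 of them were called per comparison, all lower in p38i and higher in p38KO except in CD4 T cells, where 1 was lower in each. Of the 7 genes of alternative T cell programmes, Gata3 and Il4 were higher and Foxp3 lower in CD4 T cells of p38KO and Il13 was lower in those of p38i, while in p38KO Foxp3 was higher in CD8 T cells and Gata3 in monocytes. Il4 was higher in both in the neutrophil gate, at 3, 122 and 63 counts, where mast cell markers summed to 1.01, 43.4 and 88.9 CPM; their part in it was not tested.

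Across the 21 combinations of gate and library, which share depth and cells of 3 libraries only, the genes whose log2(CPM + 10) most resembled that of each member were read as a description among 10357 genes with at least 100 counts. For Ifng they were Rgs16 (r = 0.96), Cd96 (0.93) and Dock9 (0.93). For Tbx21 they were Gzmb (0.98), Sytl3 (0.98) and Il2rb (0.98), and for Il12rb2 Sytl3 (0.97), Tiprl (0.95) and Itm2a (0.95). For Stat4 they were Osbpl3 (0.98), Rsbn1l (0.97) and Sept1 (0.97). For Ifngr1 they were Shisa5, Ankrd11 and Ccdc88c (each 0.95), and for Ifngr2 App, Csf2ra and Ctsz (0.97 to 0.98). For Irf1 they included Trim30b and Pram1 (each 0.96), and for Socs1 they were Zc3hav1 (0.94), B3gnt2 (0.93) and Ppp1r18 (0.92). Among the members themselves, Tbx21 and Il12rb2 were closest (0.95), and Ifngr2 ran opposite to Tbx21 (-0.95) and to Ifng (-0.88).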

How the data were processed

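The authors deposited 1 matrix of UMI counts per library, raw counts with no normalization, written by Cell Ranger 6.0.0 per the file headers. The submitters' processing notes also name build mm10, R 4.2.1 and Seurat 5. Groups came from the labels. The members and gene lists were chosen with earlier results of these data known. The cell filter was 1500 UMIs, 300 genes and a mitochondrial share of no more than 20%, and 0 doublets were removed. Gates used raw counts of at least 1 UMI of the named genes (2 for C1qa), and split monocytes from neutrophils by the larger of Ly6c2 plus Fn1 and Csf3r plus Cxcr2. The T, NK and DC gates left out cells with Csf3r, Cxcr2 or 2 UMIs of C1qa. All gates but the T gates left out cells with Cd3e, and the DC and myeloid gates left out cells with Ncr1. The T gates did not exclude Ncr1, the T and NK gates did not exclude Flt3, and none of the T, NK and DC gates excluded Ly6c2 or Fn1. Macrophages could hold Csf3r or Cxcr2 below the sum of Ly6c2, Fn1 and C1qa. Counts were summed per gate and library and scaled to CPM, with exact Poisson intervals, exact conditional binomial intervals of log2 ratios and Clopper-Pearson intervals of shares, all at 95% and for counting error only. Thinning drew 1500 UMIs per cell (seed 1). No test between groups was possible with 1 library each. All members were named, with the 3 most similar genes of each and the list genes called in both comparisons. Genes named in single comparisons were chosen after their values were seen. Mx1 had no row. Some genes that these rules name are not reported here. Promoters came from RefSeq tables on GRCm38.p6. Alternatives were gates, filters, thinning, scaling and cells left out, and leaving out cells with mast cell or tumor cell markers was chosen after seeing the data. The scripts were tested on simulated data. Python 3.11.15, numpy 2.4.6, scipy 1.17.1, pandas 2.3.3 and matplotlib 3.10.9 were used.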

Additional observations from a re-analysis of the deposited data

Results flagged for a closer look

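In p38KO the Ifng log2 ratio to vehicle was -1.50 in CD8 T cells but 4.51 in CD4 T cells and 1.33 in NK cells. These directions are opposite, and the difference between them was not tested, since each group is 1 library. The Stat4 log2 ratio of p38i was -0.59 in CD4 T cells and 2.16 in DC, again opposite and not tested, and 1 cell gave 13 of the 32 DC counts. Data outside the gates also held Ifng: cells of no gate held 27.6% of the p38KO counts, and barcodes that failed the cell filter held 5 counts in p38i, against 1 in vehicle and 0 in p38KO.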

How the results depend on the processing

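No paired analysis was possible because each group is 1 library, and for the same reason no library could be left out. No log2 ratio called for a member changed sign under any of 9 alternatives. Of 23 called values 7 kept their call in all 9: Ifng in CD8 T cells of p38KO, in CD4 T cells of both groups and in NK cells of p38KO, Il12rb2 in NK cells of both, and Ifngr1 in NK cells of p38KO. Thinning to 1500 UMIs kept 11 of 21 calls and gained 4, among them Ifng in CD8 T cells of p38i. Other settings gained calls too. Stat4 in CD8 T cells of both groups passed with counts scaled by the median ratio over genes. Irf1 in CD4 T cells of p38i passed with 2 UMIs of the defining gene and with gates drawn by positive genes alone. Without the cell with the most counts, the Ifng log2 ratio in CD8 T cells was 0.77 in p38i and -0.94 in p38KO. Thinned, Ifng was at -0.84 in CD8 T cells and 3.20 in CD4 T cells of p38KO and at 0.42 in NK cells of p38i. With gates drawn by their positive genes alone, Ifng in CD4 T cells of p38i was at 1.87, the members called numbered 13 in p38i and 23 in p38KO (8 and 15 as reported; 5 in p38i after thinning), and the shares of Ifng counts were 85.6% (CD8 T) and 3.94% (CD4 T) in vehicle, 75.8% (CD8 T) in p38i, and 17.0% (CD8 T), 58.3% (CD4 T) and 21.7% (NK) in p38KO. Gates drawn by positive genes alone are not exclusive, so a cell can count in several of them and their shares overlap. Some values called with positive-gene gates had too few counts for a call as reported. The share of all genes called was not computed under these alternatives, so the numbers of called members have no background there and do not measure more or less change. The CD4 T share in p38KO was 35.2% with 2 UMIs of the defining gene and 48.3% with at most 5% mitochondrial counts. Cells at their own depth held an Ifng UMI in 31.5%, 36.0% and 23.9% of the CD8 T gate, 16.5%, 15.8% and 25.0% of the NK gate (vehicle, p38i and p38KO) and 8.67% of the CD4 T gate of p38i. The cause of these shifts was not tested beyond the construction of each alternative. Counts under 20 over both libraries gave no call.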
